A study of Mus musculus with 9 samples.

Results

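The fibroblast growth factor (Fgf) pathway genes Fgf4, Fgfr1, Fgfr2, Dusp6, Spry2, Spry4, Etv4 and Etv5 were followed in RNA from mouse embryos at about the late blastocyst stage. They were chosen by symbol, as a ligand, its receptors and the genes that report or restrain the signal. Of these 8 symbols, 7 had a row among the 16070 genes of the table and 5 passed the filter on low values. Etv4 had no row and was not analysed here.

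Each of the 9 libraries came from C57BL/6 embryos grown in culture and collected 4.5 days after microinjection. The groups hold 3 libraries each: wild type (WT), embryos edited so that arginine 17 of histone H3 is replaced with histidine (H3R17H), and a genotype given as Carm1-/-, loss of the methyltransferase that acts on that residue. The title of the series names CRISPR-Cas9 editing and Yap signalling as its subject. The labels give the embryo as the source and, in the protocol, cDNA of a single cell taken from embryos, so what 1 library holds is unclear. They do not say that replicates came from separate embryos, so p-values measure only the spread between these libraries.

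In the blastocyst, Fgf4 is secreted by the epiblast, the cells that will form the fetus. It binds Fgfr1 and Fgfr2 on neighbouring cells and activates the Ras-Erk kinase cascade, which pushes inner cells towards primitive endoderm and sustains trophoblast, the outer lineage. Erk activity switches on the Ets-family factors Etv4 and Etv5, the Erk phosphatase Dusp6 and the Sprouty proteins Spry2 and Spry4. The last 3 dampen the pathway, so the RNA of these genes is often used as a readout of Fgf-Erk activity.

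Some properties of the libraries bear on every result below. Carm1 went against the labels: it lay at 6.65 to 8.86 FPKM in WT, at 0.021 to 1.88 FPKM in the H3R17H-labelled group and at 6.44 to 12.7 FPKM in the group labelled Carm1-/-. FPKM are fragments per kilobase of transcript, scaled to the depth of the library. The data columns are also named the other way round from the titles, so each group is called here by its label and no direction is tied to a genotype. The summed FPKM of 4 Y-linked genes was 28.1 to 36.6 in the 3 WT libraries and in replicate 1 of each edited group, and at most 0.01 in the other 4 edited libraries. Summed trophectoderm markers (21 of 21 with a row) spanned 8815 to 13000 FPKM in WT, 3089 to 7182 FPKM in libraries labelled H3R17H and 4014 to 15397 FPKM in the group labelled Carm1-/-, where replicate 1 was the highest of the 9. Abundant genes weigh most in such sums: in WT Krt8 alone had 2229 to 2756 FPKM and Cdx2 5.0 to 10.2 FPKM. Of 10 fibroblast markers only Fn1 and Thy1 had a row, and of 9 cumulus and granulosa markers only Star, at most 1.71 FPKM. A lower share of cells of a type and less RNA per cell cannot be told apart in these libraries.

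In WT, the receptors, Dusp6 and Etv5 were present at similar levels per length, while Fgf4 and the Sprouty genes were low. Mean FPKM over the 3 WT libraries was 7.86 ± 3.36 (SD) for Fgfr1, 7.42 ± 1.92 for Dusp6, 7.03 ± 2.09 for Fgfr2 and 5.92 ± 1.64 for Etv5. These neighbours in the order differ by less than their SD. Spry4 (2.0 ± 2.27), Fgf4 (1.19 ± 1.17) and Spry2 (0.197 ± 0.165) followed, and each of these neighbours also differs by less than the larger SD. In the libraries labelled H3R17H the order was Fgfr2, Fgfr1, Etv5, Dusp6, Spry2, Spry4 and Fgf4, from 5.44 ± 1.32 down to 0.179 ± 0.237 FPKM. In those labelled Carm1-/- it was Fgfr2, Dusp6, Etv5, Fgfr1, Fgf4, Spry2 and Spry4, from 5.39 ± 4.16 down to 0.155 ± 0.184 FPKM. Beyond the larger SD lay only the steps from Fgfr2 to Fgfr1 in the former and from Fgfr1 to Fgf4 in the latter. Averaged over all 9 libraries, Fgfr1, Fgfr2, Dusp6 and Etv5 stood at the 58.4th to 62.6th percentile of genes above 0, and Fgf4, Spry2 and Spry4 at the 26.7th to 27.9th.

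**Figure D1:**
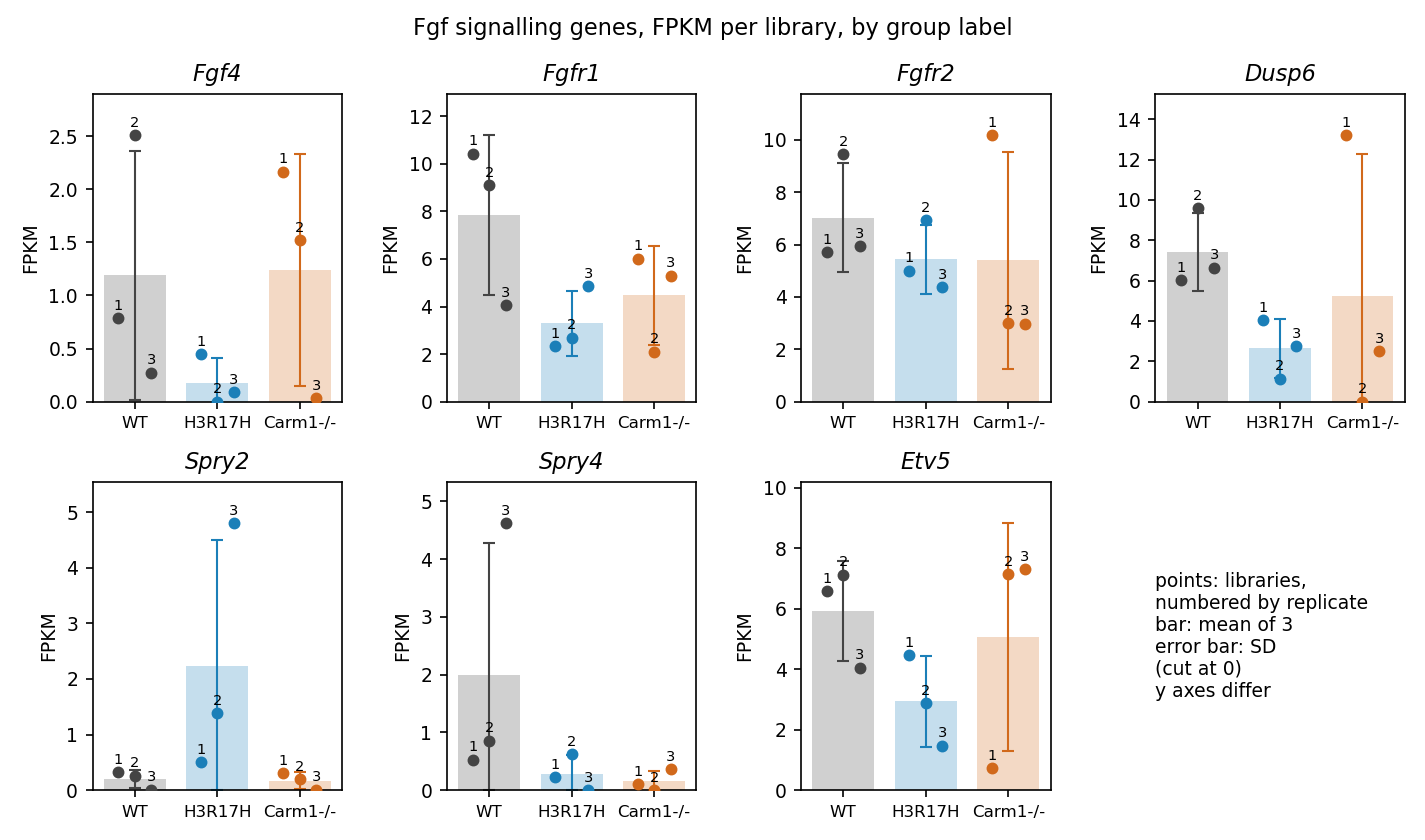
FPKM of the 7 genes in each library (points, numbered by replicate) by group label, with the mean (bar) and SD (error bar, cut at 0) of 3 libraries; the y axes differ between panels. Dusp6 lies between 1.14 and 4.03 FPKM in the H3R17H-labelled group, below all WT libraries, and replicate 1 labelled Carm1-/- reaches 13.2 FPKM.

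All 5 tested genes had lower mean values in the H3R17H-labelled group than in WT, and none passed the test. The test was limma on log2(FPKM + 1) over 11850 genes, with Benjamini-Hochberg adjustment and a threshold of 0.05. It called 0 of the 5, against 0% of all tested genes, so the call rate says nothing particular about these genes. Before adjustment 1 of the 5, Fgfr1, had p under 0.05 in limma, as did 1677 of the 11850 tested genes. The median of the 5 differences was -0.86 on the log2 scale, against -0.03 over all tested genes, of which 52.3% were lower. In Carm1-/- vs WT limma called 0 of the 5, against 0% of all genes. There 1 was higher and 4 were lower, with a median of -0.48 against -0.04 over all tested genes, of which 53.7% were lower. The comparisons share the WT libraries. Spry2 and Spry4 reached 1 FPKM in fewer than 3 libraries and were not tested in that fit.

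Fgf4, the ligand (chromosome 7, 144861386 to 144865245, plus strand), had 0.784, 2.51 and 0.272 FPKM in replicates 1 to 3 of WT. It lay at 0.447, 0 and 0.089 FPKM in the H3R17H-labelled group, and at 2.17, 1.52 and 0.032 FPKM in the group labelled Carm1-/-. The groups overlapped, and each of the edited groups held a library near 0. The log2 difference from WT was -0.78 for H3R17H (95% interval -1.88 to 0.32, limma adjusted p = 0.497) and 0.02 for Carm1-/- (-1.09 to 1.12, adjusted p = 0.993). At these low levels a pseudocount of 1 compresses differences: with 0.1 the H3R17H value was -2.13 (adjusted p = 0.502). Without WT replicate 2, the highest library, the H3R17H value was -0.37 (adjusted p = 0.827), and the Carm1-/- value ran from -0.31 to 0.5 over the libraries left out. The summed epiblast markers (16 of 16 with a row) lay at 4666 to 6587, 4328 to 4582 and 5144 to 6618 FPKM in WT, H3R17H and Carm1-/- in that order. Their median log2 difference from the WT mean was -0.68 to -0.26 and -0.34 to 0.07 in the edited groups. Single markers differed. In the same order of groups, Nanog lay at 39.9 to 56.9, 40.3 to 63.5 and 36.1 to 47.5 FPKM. Pou5f1 lay at 41.9 to 91.2, 79.5 to 109 and 63.6 to 118 FPKM, and Sox2 at 1.18 to 3.14, 0.135 to 1.38 and 0.118 to 3.14 FPKM. The part of epiblast content in the Fgf4 values was not tested.

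Fgfr1, the receptor tyrosine kinase found on epiblast and primitive endoderm (chromosome 8, 25518759 to 25575718, plus strand), lay at 10.4, 9.09 and 4.05 FPKM in WT. It was at 2.34, 2.70 and 4.87 FPKM in the H3R17H-labelled group and at 6.01, 2.11 and 5.30 FPKM in the group labelled Carm1-/-. WT replicates 1 and 2 exceeded all 6 edited libraries, and WT replicate 3 fell among them. The log2 difference was -1.0 for H3R17H (95% interval -1.99 to -0.02, limma adjusted p = 0.348) and -0.70 for Carm1-/- (-1.68 to 0.29, adjusted p = 0.551). This gene kept a lower value in both edited groups under every alternative run, with a range of -1.37 to -0.61 and -1.06 to -0.33. With a sex term, coded from the Y-linked transcripts, its values were -0.94 and -0.63. Without replicate 2 labelled Carm1-/- the difference of that group was -0.33 (adjusted p = 0.871). The summed primitive endoderm markers (16 of 17 with a row) lay at 272 to 331 FPKM in WT, 231 to 234 FPKM in the H3R17H-labelled group and 150 to 380 FPKM in the group labelled Carm1-/-. Among them the receptor gene Pdgfra lay at 6.06 to 9.44, 0.007 to 1.82 and 2.91 to 10.01 FPKM, while the transcription factor Gata6 lay at 21.7 to 29.0, 36.2 to 52.4 and 20.8 to 40.1 FPKM. The part of primitive endoderm content in the Fgfr1 values was not tested.

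Fgfr2, the receptor of trophectoderm and primitive endoderm (chromosome 7, 130162451 to 130266808, minus strand), differed less from WT in the H3R17H-labelled group. Its values were 5.71, 9.44 and 5.94 FPKM in WT, 5.0, 6.92 and 4.39 FPKM in the H3R17H-labelled group and 10.2, 3.0 and 2.98 FPKM in the group labelled Carm1-/-. Within the last group replicate 1 was the highest of all 9 libraries and replicates 2 and 3 the lowest. The log2 difference was -0.31 for H3R17H (95% interval -1.27 to 0.65, limma adjusted p = 0.775) and -0.48 for Carm1-/- (-1.44 to 0.48, adjusted p = 0.684). Without replicate 1 labelled Carm1-/- the latter was -0.98 (adjusted p = 0.128), and without replicate 2 or 3 it was -0.24 and -0.23 (adjusted p = 0.923 and 0.882). Without WT replicate 2 the values were -0.10 for H3R17H and -0.28 for Carm1-/-. A sex term took them to 0.15 and -0.03 (adjusted p = 0.968 and 0.998). The same library held the highest summed trophectoderm markers, 15397 FPKM against 4014 and 4706 in replicates 2 and 3. Whether that difference has a part in the Fgfr2 values was not tested.

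**Figure D2:**
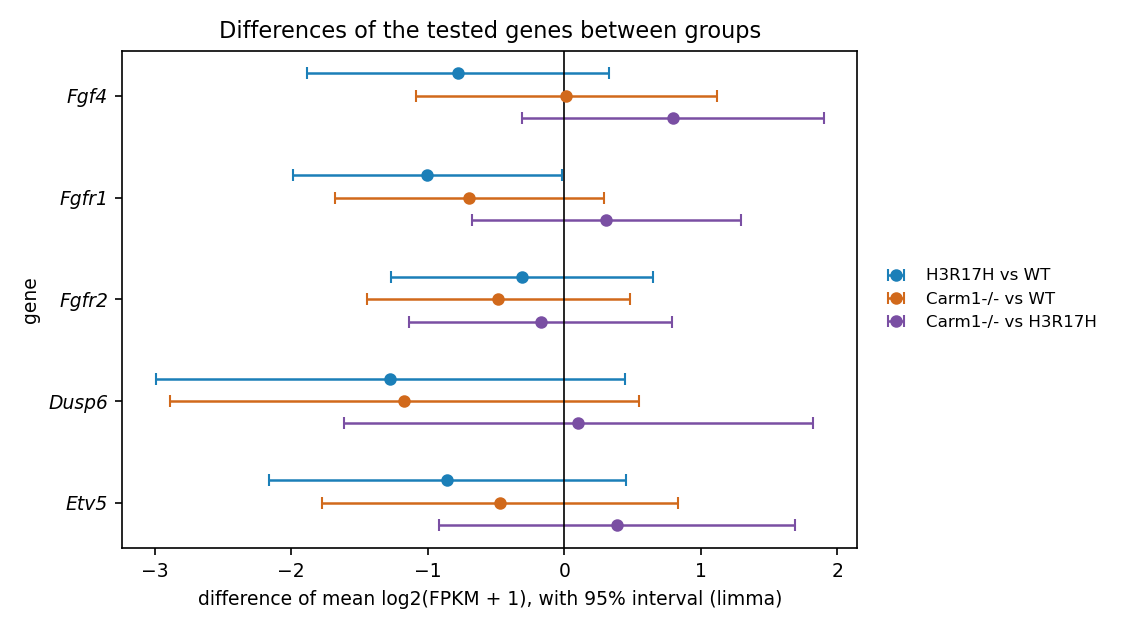
Difference of mean log2(FPKM + 1) for the 5 tested genes (points) with the 95% interval from limma (bars), for the 3 pairs of groups; the comparisons with WT share the WT libraries. Every interval crosses 0 apart from Fgfr1 in H3R17H vs WT, which ends at -0.02 before any adjustment for the number of genes tested.

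Dusp6, the cytoplasmic phosphatase that inactivates Erk (chromosome 10, 99263231 to 99267489, plus strand), varied most within groups among the 5 tested genes. The WT libraries held 6.01, 9.61 and 6.65 FPKM, against 4.03, 1.14 and 2.74 FPKM in the H3R17H-labelled group. The 2 groups did not overlap. In the libraries labelled Carm1-/- it was at 13.2, 0 and 2.49 FPKM, so that replicate 1 was the highest and replicate 2 the lowest of all 9. Its within-group SD, 1.18 on the log2 scale, was above that of 97% of tested genes, whose median was 0.47. The log2 difference from WT was -1.27 for H3R17H (95% interval -2.99 to 0.44, limma adjusted p = 0.479) and -1.17 for Carm1-/- (-2.89 to 0.54, adjusted p = 0.568). Without replicate 1 labelled Carm1-/- these were -1.27 (adjusted p = 0.218) and -2.15 (adjusted p = 0.0598). Without replicate 2 of that label, the library at 0, the Carm1-/- difference shrank to -0.23 (adjusted p = 0.942). With only the groups compared, the first had an adjusted p of 0.0978.

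Dusp6 values also divided by the Y-linked transcripts. The 5 libraries that held them had Dusp6 at 4.03 to 13.2 FPKM, and the 4 that lacked them at 0 to 2.74 FPKM, with no overlap. The other members with a row overlapped on this split, which was chosen after the values were seen. How many of all genes separate on it was not counted, so it is not shown to be particular to Dusp6. Dhx32, the gene of most similar profile (below), also separated, at 27.5 to 38.6 FPKM with these transcripts and 14.5 to 24.3 FPKM without. Rab18, the next most similar, overlapped. With a sex term the log2 difference from WT was -0.02 for H3R17H and 0.08 for Carm1-/-. Among libraries with Y-linked transcripts each edited group has only replicate 1: the H3R17H value of 4.03 FPKM lay below the 3 WT libraries and the Carm1-/- value of 13.2 FPKM above them. No WT library lacked these transcripts, so sex and group cannot be told apart for this gene. Xist, an RNA of the inactive X chromosome, stood at 0.187 to 0.427 FPKM in WT and 0.259 FPKM in Carm1-/- replicate 1. It reached 4.84 FPKM in H3R17H replicate 1, against 16.6 to 32.5 FPKM where summed Y-linked FPKM was at most 0.01. H3R17H replicate 1 thus held both marks, yet the sex term grouped it with WT. How far the sex-term values depend on that coding was not tested. The median of the trophectoderm markers, as log2 difference from the WT mean, was 0.38 in replicate 1 labelled Carm1-/- and -1.42 to -0.38 in the other 5 edited libraries. Its part in the Dusp6 values was not tested. The 0 in replicate 2 labelled Carm1-/- stood in a library with many such entries. Of 7767 genes at 1 FPKM or more in all the other 8 libraries it listed 83 at 0, against 0 to 14 in each of the others.

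Etv5, the Ets-family factor downstream of Erk (chromosome 16, 22381313 to 22439570, minus strand), did not follow Dusp6 in the libraries labelled Carm1-/-. Its WT libraries held 6.59, 7.13 and 4.05 FPKM, against 4.46, 2.89 and 1.47 FPKM in the H3R17H-labelled group, where only replicate 1 entered the WT range. In the libraries labelled Carm1-/- it was at 0.724, 7.15 and 7.32 FPKM. Replicates 2 and 3 of that label were close to the highest WT library, at 7.13 FPKM. Replicate 1 was the lowest of the 9, the reverse of its order for Dusp6. The log2 difference was -0.86 for H3R17H (95% interval -2.16 to 0.45, limma adjusted p = 0.529) and -0.47 for Carm1-/- (-1.78 to 0.83, adjusted p = 0.777). Without replicate 1 labelled Carm1-/- the latter turned to 0.28 (adjusted p = 0.72), and without replicate 2 or 3 it was -0.84 and -0.86 (adjusted p = 0.75 and 0.648). Without replicate 3 labelled H3R17H the former was -0.56 (adjusted p = 0.733). With a sex term the differences were -1.34 and -0.95 (adjusted p = 0.721 and 0.978).

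The Sprouty genes encode membrane-bound inhibitors of receptor tyrosine kinase signalling. Spry2 (chromosome 14, 105891947 to 105896819, minus strand) had 0.323, 0.258 and 0.01 FPKM for WT, close to 0.3, 0.202 and 0.009 FPKM for the label Carm1-/-. It was at 0.504, 1.38 and 4.8 FPKM in the H3R17H-labelled group, all above the other 6. The gap is small, 0.504 against 0.323 FPKM, and the mean of that group rests largely on replicate 3. The share of all genes above the other 6 libraries in this way was not counted, and shares for pairs of groups follow below. Spry4 (chromosome 18, 38586247 to 38601347, minus strand) had its higher values in WT. It lay at 0.529, 0.858 and 4.62 FPKM in WT, at 0.228, 0.625 and 0 FPKM in the H3R17H-labelled group and at 0.107, 0 and 0.359 FPKM in the group labelled Carm1-/-. The last group lay below every WT library, and the mean WT level of Spry4 rests on replicate 3. With no filter limma gave a log2 difference of 1.21 for Spry2 in H3R17H vs WT (SE 0.44, adjusted p = 0.357) and of -1.0 and -1.14 for Spry4 in the H3R17H and Carm1-/- comparisons (SE 0.46, adjusted p = 0.44 and 0.459).

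Groups that do not overlap are common in these data. In H3R17H vs WT 1 of the 7 genes, Dusp6, lay wholly below WT, where 13% of the 15985 genes above 0 did so. A different gene, Spry2, lay wholly above, where 11.1% of genes did. In Carm1-/- vs WT only Spry4 lay wholly below, against 8.85% of genes, and none lay wholly above, against 5.99%. In Carm1-/- vs H3R17H only Spry2 did not overlap, with lower values, against 5.57% of genes, and none lay wholly above, against 4.4%. With both edited groups against WT none of the 7 lay wholly below or above, against 3.7% and 2.08% of genes. With 7 genes, counts of 0 or 1 are near these background shares and are no result about the set.

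The upstream sequences of Dusp6 and Spry2 are shown because these feedback genes lay on opposite sides of WT in the H3R17H-labelled group. Each holds the 250 bases before the RefSeq start (GRCm38.p6), read 5′ to 3′ on the gene's strand. Capitals mark GGAA, the short core bound by Ets-family factors such as Etv5, on either strand (TTCC on the strand shown). This short core was chosen after the values were seen.
Dusp6, chr10:99262981-99263230: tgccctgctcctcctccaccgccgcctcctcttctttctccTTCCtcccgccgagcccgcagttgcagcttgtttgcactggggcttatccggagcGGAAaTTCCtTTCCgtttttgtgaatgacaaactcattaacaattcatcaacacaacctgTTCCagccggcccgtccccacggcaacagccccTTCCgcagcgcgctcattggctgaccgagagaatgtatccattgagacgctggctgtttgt
Spry2, chr14:105896820-105897069: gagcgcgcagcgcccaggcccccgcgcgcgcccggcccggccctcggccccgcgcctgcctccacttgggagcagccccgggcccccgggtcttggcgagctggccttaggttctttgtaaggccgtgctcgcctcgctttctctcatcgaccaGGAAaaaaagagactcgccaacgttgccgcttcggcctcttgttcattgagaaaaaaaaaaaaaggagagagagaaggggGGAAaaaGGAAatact
The Dusp6 window holds 6 such cores and the Spry2 window 3, and 93.4% of the 32851 windows of this length hold at least 1. A longer Ets core, CCGGAA, was in neither window, nor were the AP-1 site TGANTCA and the cAMP response element TGACGTCA, all searched on both strands. None of the 6 windows found for Fgf4, Fgfr2, Dusp6, Spry2 and Etv5 (which has 2) held any of these 3 motifs, which occur in 12%, 6.7% and 1.5% of all windows. Their GC content ran from 44% for Fgfr2 to 71.2% for Fgf4 and 1 of the Etv5 starts, against a median of 52.4%. The short core GGAA had 4 and 0 matches in the Etv5 windows, 2 for Fgfr2 and 0 for Fgf4. Its usual number per window was not counted. These matches are descriptions of the letters, and no binding was measured.

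Between the edited groups no tested gene passed either. In Carm1-/- vs H3R17H the log2 differences were 0.80 for Fgf4 (95% interval -0.31 to 1.90), 0.31 for Fgfr1 (-0.68 to 1.29), 0.39 for Etv5 (-0.92 to 1.69), 0.10 for Dusp6 (-1.62 to 1.82) and -0.17 for Fgfr2 (-1.13 to 0.79). Limma adjusted p-values ran from 0.743 to 0.983, with 0% of all genes called. The intervals leave room for changes of more than 1 on the log2 scale in every one of these genes, so the groups are not shown to be alike. Both edited groups together against WT gave -0.85 for Fgfr1 (adjusted p = 0.348), -1.22 for Dusp6 (0.413), -0.66 for Etv5 (0.552), -0.40 for Fgfr2 (0.641) and -0.38 for Fgf4 (0.706), again with 0% of genes called. In these 2 comparisons and in Carm1-/- vs WT, 0 of the 5 genes had an unadjusted p under 0.05 in limma. Over all 11850 tested genes the counts were 973, 1697 and 1355 in that order.

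**Figure D3:**
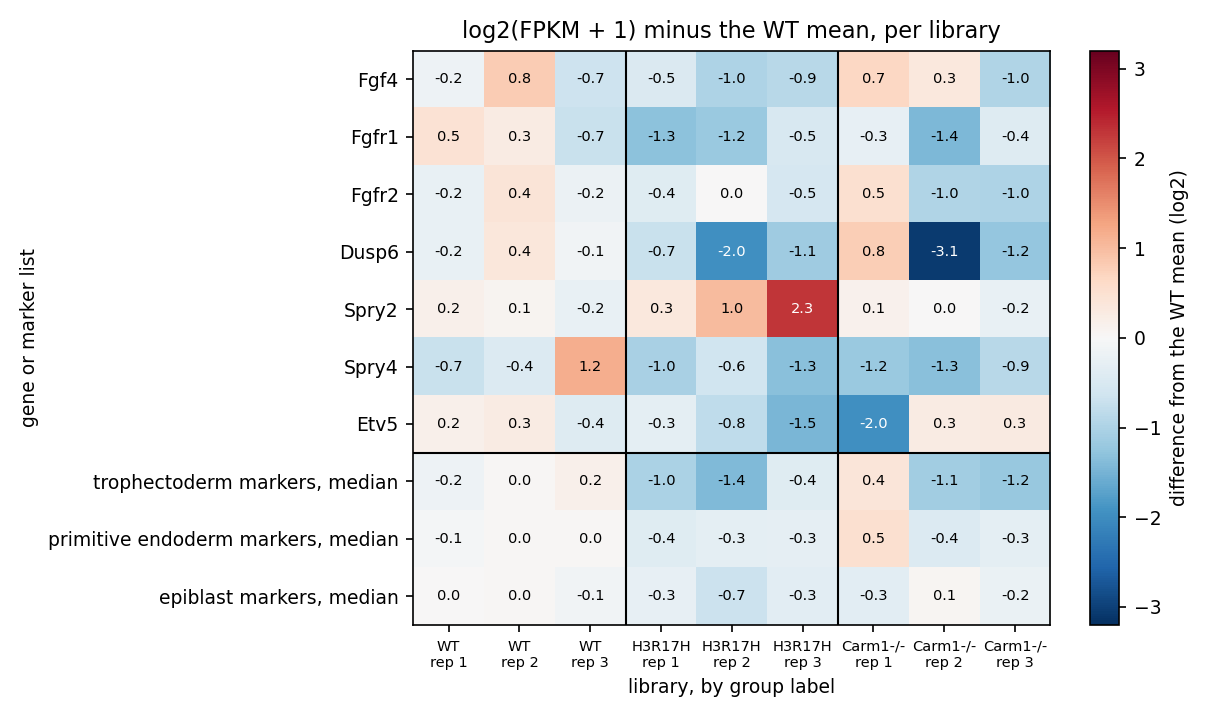
log2(FPKM + 1) minus the WT mean for each gene and library (colour and printed value), with the median of the trophectoderm, primitive endoderm and epiblast marker lists below. Replicate 1 labelled Carm1-/- stands apart from replicates 2 and 3 for Dusp6 (0.8 against -3.1 and -1.2), Etv5 (-2 against 0.3 and 0.3) and the trophectoderm markers (0.4 against -1.1 and -1.2).

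The genes whose profile over the 9 libraries was most like that of each better-expressed gene were named by Pearson's r of log2(FPKM + 1) among 5949 candidates. This is a description over libraries that share their groups and the Y-linked split. Dusp6 was most like Dhx32, a helicase-family gene (r = 0.971), and Rab18, a small GTPase (0.970). Dhx32 ranged from 30.3 to 38.6 FPKM in WT and from 14.5 FPKM in replicate 2 to 37.1 FPKM in replicate 1 labelled Carm1-/-. Fgfr2 was most like Itch, a ubiquitin ligase (0.907), and Ptges, a prostaglandin E synthase (0.905). Fgfr1 was most like Mrps35, a protein of the mitochondrial ribosome (0.938), and Impa1, an inositol monophosphatase (0.935).

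Around the 7 genes, 141 other symbols of the pathway were listed, 104 had a row and 81 were tested. None was called in any of the 4 comparisons. At an unadjusted p under 0.05 limma gave 20 of the 81 in H3R17H vs WT, 13 in Carm1-/- vs WT, 6 in Carm1-/- vs H3R17H and 17 with both edited groups against WT, and 1677, 1355, 973 and 1697 of all 11850 genes. The values below are therefore descriptions. Of all tested genes 52.3% were lower in H3R17H vs WT and 53.7% in Carm1-/- vs WT, for comparison with the counts by list.

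Few other ligands were seen. Of 23 further Fgf ligands and binding proteins 9 had a row, and only the carriers Fgfbp1 and Fgfbp3, which release Fgfs from the matrix, passed the filter. Fgfbp1 averaged 11.3 ± 1.11 FPKM in WT, 5.06 ± 4.27 FPKM in the H3R17H-labelled group and 4.11 ± 4.31 FPKM in the group labelled Carm1-/- (SD, n = 3), and Fgfbp3 1.04 ± 0.812, 6.12 ± 6.37 and 2.69 ± 2.73 FPKM. Of 17 receptors and co-receptors 7 were tested, with 3 higher and 4 lower in H3R17H vs WT (median -0.03) and 5 higher and 2 lower in Carm1-/- vs WT (median 0.16). The heparan sulphate carrier Sdc4 was the most abundant of those named, 2039 ± 343 FPKM in WT, 1428 ± 295 FPKM in the H3R17H-labelled group and 1547 ± 32.7 FPKM in the group labelled Carm1-/- (log2 difference -0.52, adjusted p = 0.301, and -0.38, adjusted p = 0.48). Flrt3, a membrane protein that binds Fgf receptors, was listed at 0 in 5 of the 6 edited libraries, had 1.32 FPKM in replicate 1 labelled Carm1-/- and lay at 0.394, 1.27 and 12.9 FPKM in WT. Klb, the co-receptor for endocrine Fgfs, averaged 1.30 ± 1.13 FPKM in WT against 4.15 ± 3.28 and 4.12 ± 1.13 FPKM. Flrt1, a relative of Flrt3, averaged 1.74 ± 1.24, 0.791 ± 0.681 and 1.84 ± 0.582 FPKM.

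Heparan sulphate holds Fgf4 on its receptor. Of 16 tested genes of its synthesis 10 were lower in H3R17H vs WT (median -0.12) and 12 in Carm1-/- vs WT (median -0.33), beside medians of -0.03 and -0.04 over all genes. Ugdh, which makes the glucuronic acid donor, averaged 58.0 ± 17.5 FPKM for WT against 19.3 ± 10.1 FPKM in the H3R17H-labelled group (log2 difference -1.61, adjusted p = 0.237). Its values for the label Carm1-/- were 66.5, 20.9 and 21.1 FPKM, with replicate 1 again among WT. Sulf2, which trims sulphates, averaged 11.9 ± 1.40 and 3.2 ± 1.44 FPKM (-1.68, adjusted p = 0.255). For the label Carm1-/- it had 17.7, 2.41 and 9.43 FPKM (-0.55, adjusted p = 0.72), with replicate 1 above every WT library. Ugp2, which makes UDP-glucose, averaged 30.6 ± 5.90, 12.2 ± 3.80 and 14.6 ± 13.97 FPKM over the 3 groups. B3galt6, an enzyme of the linker, had higher values in the edited groups, 2.97 ± 1.08 FPKM in WT against 5.91 ± 0.659 and 7.57 ± 1.64 FPKM (0.83, adjusted p = 0.303, and 1.13, adjusted p = 0.266).

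In the cascade from adaptors to Erk, 16 of 26 tested genes were lower in H3R17H vs WT (median -0.18) and 17 in Carm1-/- vs WT (median -0.32). The kinases that activate Erk lay on opposite sides of WT in H3R17H vs WT, without passing the test. Map2k1 averaged 29.9 ± 1.55 FPKM in WT, 19.6 ± 4.96 FPKM in the H3R17H-labelled group and 34.4 ± 4.81 FPKM in the group labelled Carm1-/-, and Map2k2 44.3 ± 12.6, 69.6 ± 4.65 and 64.4 ± 5.29 FPKM. Their log2 differences in H3R17H vs WT were -0.61 (adjusted p = 0.33) and 0.68 (adjusted p = 0.278). Lamtor3, a scaffold for this step, averaged 43.5 ± 8.88, 26.3 ± 4.55 and 27.4 ± 7.0 FPKM. Rps6ka3, a kinase activated by Erk, averaged 1.09 ± 0.418, 0.797 ± 0.489 and 0.17 ± 0.166 FPKM.

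Among 14 other feedback inhibitors 7 were higher and 7 lower in H3R17H vs WT (median -0.02), and 4 higher and 10 lower in Carm1-/- vs WT (median -0.29). Dusp4, a nuclear Erk phosphatase, had 3.43, 9.41 and 9.70 FPKM for WT against 37.0, 39.3 and 19.0 FPKM in the H3R17H-labelled group, opposite in direction to Dusp6 (log2 difference 1.99, adjusted p = 0.248). In the libraries labelled Carm1-/- it was at 28.6, 3.68 and 19.3 FPKM. Errfi1, an inhibitor of the epidermal growth factor receptor, lay at 4.31, 8.83 and 9.99 FPKM in WT, at 2.09, 0.664 and 1.62 FPKM in the H3R17H-labelled group and at 3.96, 1.43 and 1.27 FPKM in the group labelled Carm1-/-. All 6 edited libraries were below WT, as they were for 3.7% of the 15985 genes above 0. The log2 differences were -1.80 (limma adjusted p = 0.212) and -1.46 (adjusted p = 0.289). Lztr1, which promotes the turnover of Ras proteins, averaged 4.65 ± 1.76, 6.46 ± 0.705 and 2.59 ± 0.827 FPKM over the 3 groups, and the phosphatase Dusp16 2.42 ± 1.49, 1.54 ± 0.602 and 4.75 ± 1.53 FPKM.

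Other genes that respond to Erk had mostly higher values than WT, without passing the test. Of 16 tested, 11 were higher in H3R17H vs WT (median 0.61) and 12 in Carm1-/- vs WT (median 0.32). Over all tested genes 47.7% and 46.3% were higher, with medians of -0.03 and -0.04. Plaur, the urokinase receptor, averaged 14.4 ± 5.66 FPKM in WT, 39.7 ± 23.3 FPKM in the H3R17H-labelled group and 51.5 ± 20.4 FPKM in the group labelled Carm1-/-, and Trib3, a pseudokinase also induced by cell stress, 1.03 ± 0.493, 3.97 ± 1.54 and 3.98 ± 1.92 FPKM. Junb, a component of AP-1, lay at 1.88 to 2.82 FPKM in the H3R17H-labelled group and at most 1.02 FPKM in the other 6 (log2 difference from WT 1.25, adjusted p = 0.235). Of the 15985 genes above 0, 11.1% lay wholly above WT in the H3R17H-labelled group. The share that lay above all of the other 6 libraries was not counted. Epha4, an ephrin receptor, had lower values there, 5.59 ± 0.614 FPKM in WT against 2.04 ± 0.982 FPKM (-1.16, adjusted p = 0.305), and 7.0 ± 4.07 FPKM for the label Carm1-/-. Myc, named after its value was seen, had the lowest difference of the list in Carm1-/- vs WT, -1.68, from a mean of 8.82 to 2.82 FPKM. Many of these genes also answer to other signals, and none was called.

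**Figure D4:**
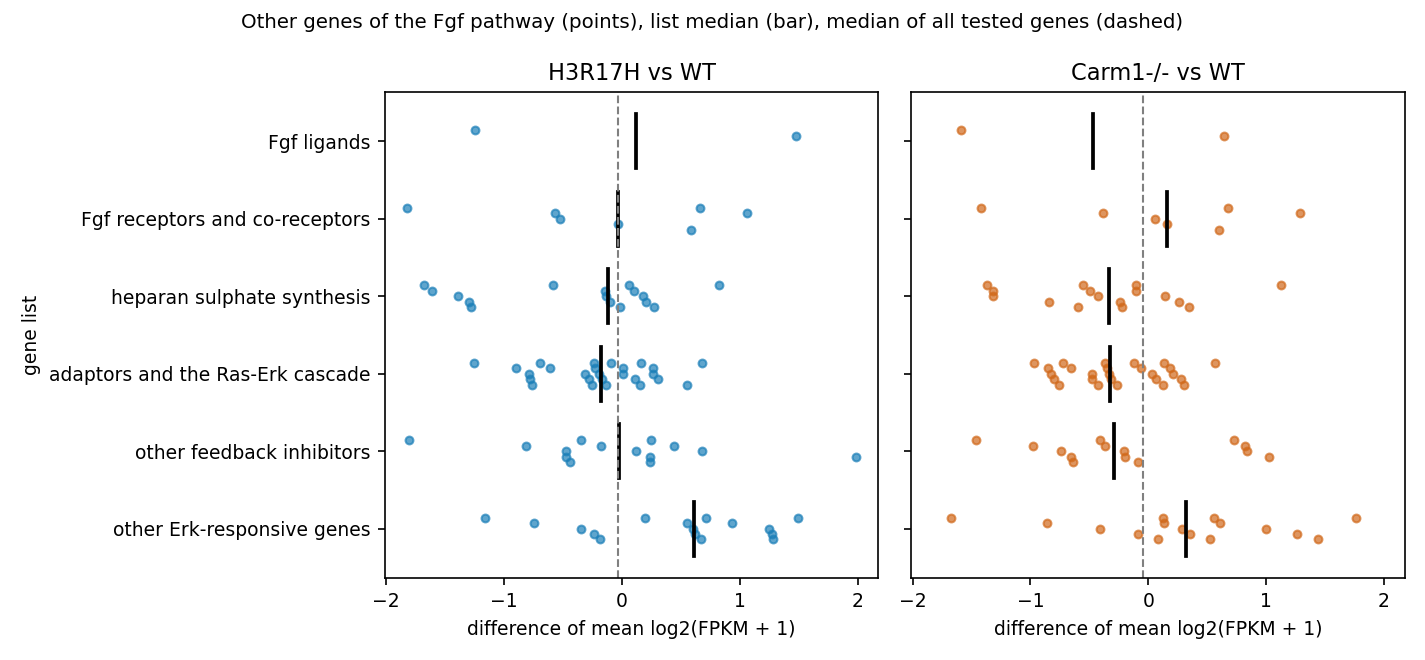
Difference of mean log2(FPKM + 1) from WT for each tested gene of 6 pathway lists (points), with the list median (black bar) and the median of all tested genes (dashed line); both panels share the WT libraries. The list of other Erk-responsive genes has medians of 0.61 and 0.32, and the cascade list medians of -0.18 and -0.32.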

How the data were processed

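Gene expression was analysed in 9 libraries of cultured mouse embryos. The authors deposited 1 table of FPKM, per the labels, with a column for each library matched to a sample through the sample descriptions. The submitters' processing notes name Bowtie 0.12.2, mm10 and GRCm38, without saying what each was used for. Which quantifier, annotation and gene filter were used is not given in the sources used here. Low FPKM values did not resolve into whole reads, so the depth is unknown and no counting interval is given. Because FPKM are relative to each library's total, a change in abundant genes moves all others. Summed FPKM ran from 521143 to 567858 per library.

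The 11850 genes that reached 1 FPKM in 3 or more libraries were tested as log2(FPKM + 1) in a single limma fit over the 3 groups with limma's trend option, so that all groups inform the estimate of spread. Benjamini-Hochberg adjustment ran over all tested genes. Fold changes on this scale understate those of low genes. The members, pathway lists, tests and alternatives were chosen with earlier results of these data known. The 8 listed symbols, Carm1, up to 4 tested genes of each pathway list with the smallest p over the comparisons and the 2 genes most like each member of at least 5 FPKM (Pearson's r over 9 libraries, without predicted gene models) could be named. The marker genes named, and the ranges by Y-linked transcripts, were chosen after the values were seen. Positions, 1-based, and promoter windows are from RefSeq (GRCm38.p6), where 5 of the 7 genes had a printable window. The fit was tested on simulated normal values with all means raised well above 0 and changes larger than those of the members. That test therefore does not cover low genes such as Fgf4. Fits used limma 3.58.1 in R 4.3.3. Summaries used numpy 2.4.6 and pandas 2.3.3, and plots matplotlib 3.10.9, in Python 3.11.15.
Alternatives were other pseudocounts, filters and scalings, array quality weights, a fit without the trend, a fit of only the groups compared, a replicate block, a sex term and leaving out each library.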

Additional observations from a re-analysis of the deposited data

How the results depend on the processing

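The 5 tested genes stayed above an adjusted p of 0.05 under every alternative that could test them. Of 387 values for a gene and comparison, 367 kept their direction and 20 reversed. The sex term reversed Fgfr2 in H3R17H vs WT (0.15), Dusp6 in Carm1-/- vs WT (0.08), and Fgf4 (0.10), Fgfr2 (0.06) and Dusp6 (0.03) with both edited groups vs WT. Fgf4 in Carm1-/- vs WT reversed with a pseudocount of 0.1 (-0.28), quantile normalization (-0.007) and array quality weights (-0.59). Dusp6 in Carm1-/- vs H3R17H reversed with a pseudocount of 0.1 (-0.69) and array quality weights (-0.025). Leaving out each library in turn reversed some values of Fgf4 in Carm1-/- vs WT (range -0.31 to 0.5) and with both edited groups vs WT (-0.708 to 0.025), Etv5 in Carm1-/- vs WT (-0.855 to 0.281), and Fgfr2 (-0.669 to 0.076) and Dusp6 (-0.875 to 1.04) in Carm1-/- vs H3R17H. The replicate numbers share no litter or day in the labels. Deviations of same-numbered libraries correlated at -0.05 to 0.18, within the -0.247 to 0.274 of libraries with unlike numbers. Whether the numbers mark a pairing is therefore not known. With a replicate block limma called 0 genes in each comparison. Genes called among all tested, 0 as reported, were 1 (pseudocount 5), 192 (array quality weights) and 240 (only the groups compared) in H3R17H vs WT. They were 1 (pseudocount 0.1) and 1 (array quality weights) in Carm1-/- vs WT, and 465 (array quality weights) with both edited groups vs WT. In Carm1-/- vs H3R17H they were 1 with a pseudocount of 0.1 or 5, 2 with median-of-ratios scaling or quantile normalization and 3 without a trend. Leaving out each library in turn they ranged from 0 to 125 in H3R17H vs WT, 0 to 549 in Carm1-/- vs WT, 0 to 10 in Carm1-/- vs H3R17H and 0 to 623 with both edited groups vs WT, the highest each time without replicate 1 labelled Carm1-/-. Counts above 0 also came without WT replicate 1 (2 in H3R17H vs WT, 1 in Carm1-/- vs H3R17H and 1 with both edited groups vs WT) and without replicate 2 labelled Carm1-/- (4 in H3R17H vs WT). The cause was not tested. The unknown depth and 3 libraries a group limit all of these values, and a mean of at least 5 FPKM left Fgf4 and Etv5 untested.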

Other observations

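The balance of the receptors differed between libraries without following the groups. The ratio of Fgfr2 to Fgfr1 in FPKM was 0.547, 1.04 and 1.47 in WT, 2.14, 2.57 and 0.901 in the H3R17H-labelled group and 1.70, 1.43 and 0.563 for the label Carm1-/-. The ranges of the 3 groups overlap. The summed FPKM of both receptors was 9.996 to 18.5 in WT and 16.2 in replicate 1 labelled Carm1-/-, while the other 5 edited libraries lay between 5.11 and 9.62. These sums were looked at after the values were seen and were not tested.

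Some Fgf ligands appeared only at low levels in a few libraries and did not pass the filter. Fgf3 averaged 0.09 FPKM in WT, 0.497 FPKM in the H3R17H-labelled group and 2.22 FPKM for the label Carm1-/-, with a highest value of 3.25 FPKM. Fgf21 reached 2.06 FPKM in a library labelled Carm1-/- and was listed at 0 in both other groups. Among the receptors, Fgfr3 also failed the filter and averaged at most 1.16 FPKM in a group. Fgfr4 passed it, averaged 1.35, 2.73 and 3.57 FPKM in the 3 groups in the same order and was not called. These genes were chosen after their values were seen.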
